A study of Homo sapiens with 7 samples.

Results

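BCR on chromosome 22 and ABL1 on chromosome 9 are the genes joined by the Philadelphia translocation, and FIBCD1, LAMC3 and NUP214 follow ABL1 on chromosome 9. All probes that the array annotation assigns to these 5 genes were taken, 45 of the 174225 placed probes in the series. The 6 arrays of the larger design carry 44 of them (14 in ABL1, 12 in BCR, 9 in NUP214, 6 in LAMC3 and 3 in FIBCD1), and the array labelled 44k carries 16. The question was how much nascent DNA each stretch of these genes gave in K562 cells, where the fusion is known to be amplified, and when in S phase it was made, against U2OS cells.

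The series compares replication timing of 2 human cell lines grown in culture. K562 is a chronic myeloid leukaemia line with the BCR-ABL1 fusion, and U2OS is an osteosarcoma line that is used here as the comparison and has copy number changes of its own. Cells took up 50 µM BrdU for 2 h, 80000 of them were sorted by DNA content into cells early and cells late in S phase, and BrdU-containing DNA was immunoprecipitated, amplified over the whole genome and hybridised with early DNA in green (Cy3) and late DNA in red (Cy5). K562 was measured on 3 arrays (a new sorting method, an old sorting method, and an array labelled 44k whose sorting method the titles do not give) and U2OS on 4 (2 manual and 2 automated preparations). No group carried a drug or a genetic change beyond the cell line, and all arrays had the same dye orientation. The 3 K562 arrays differ in method as well as in preparation, and nothing in the labels says that any of the 7 came from separate cultures, so p-values measure the spread between these arrays.

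BCR encodes a protein with kinase and exchange-factor activity that is broadly expressed. ABL1 encodes a tyrosine kinase, and the fusion of the first exons of BCR to the later exons of ABL1 gives a constantly active kinase that drives chronic myeloid leukaemia. In the fused chromosome the 5′ part of BCR is joined to the 3′ part of ABL1 and to what lies behind it, so extra copies of the fusion carry the start of BCR but not its end, and the end of ABL1 but not its start. Replication timing is the order in which stretches of the genome are copied in S phase. Gene-rich, expressed chromatin is usually copied early, and neighbouring genes tend to be copied together.

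Total signal was the sum of green and red spot signal above the negative control spots of the array, divided by the array's median probe and given in log2, so that 0 is the median probe and 1 unit is a doubling. It is relative to each array's own median and follows whole-genome amplification, so it ranks stretches of DNA by amount and is not a copy number. Timing was log2(early/late), centred on the array's median probe, so positive values are earlier than that probe. The median probe gave 30.5 to 196 green and 38.5 to 214 red units above the negative controls. The weakest channels were the green of the old-sorting K562 array, with 44.8% of its probes well above background, and the red of the array labelled 44k, with 8.83%. CDKN2A, which K562 is known to have lost, was lower in K562 (-2.22 ± 0.66, SD, n = 3) than in U2OS (-0.99 ± 0.15, n = 4) in total signal (limma, adjusted p = 0.047). BMP1, the early control of the protocol, had positive timing on 6 arrays and -3.32 on the array labelled 44k, and DPPA2, the late control, was negative on all 7. Of the 5 genes' spots none was saturated or non-uniform, but on the manual U2OS arrays 30 and 40 of the 44 spots were not well above background in red, so late signal of these genes in manual U2OS is poorly measured.

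Inside BCR and inside ABL1 the K562 signal changed level. The probes on each side of these changes are printed here because they stand on both sides of the places where the high signal starts and stops. They are written 5′ to 3′ as deposited, with hg19 positions. The files give no strand, and whether a probe lies in an exon or an intron was not analysed here.

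BCR probe A_16_P03605262, chr22:23614430-23614489, amplified side: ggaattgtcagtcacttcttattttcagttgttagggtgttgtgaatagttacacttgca
BCR probe A_14_P117284, chr22:23627339-23627391, amplified side: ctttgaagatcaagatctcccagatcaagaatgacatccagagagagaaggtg
BCR probe A_16_P21290040, chr22:23634972-23635024, other side: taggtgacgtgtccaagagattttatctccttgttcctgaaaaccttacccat
BCR probe A_16_P03605320, chr22:23643164-23643223, other side: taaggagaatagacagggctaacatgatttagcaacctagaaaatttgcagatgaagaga
ABL1 probe A_14_P126295, chr9:133590274-133590333, other side: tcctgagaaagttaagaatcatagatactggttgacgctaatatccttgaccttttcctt
ABL1 probe A_16_P38888825, chr9:133599008-133599067, other side: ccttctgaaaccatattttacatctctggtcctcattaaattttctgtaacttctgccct
ABL1 probe A_16_P18785356, chr9:133614692-133614751, amplified side: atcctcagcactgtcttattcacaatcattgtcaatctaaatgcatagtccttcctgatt
ABL1 probe A_16_P02185922, chr9:133627372-133627431, amplified side: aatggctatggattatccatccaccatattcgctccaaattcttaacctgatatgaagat

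The split in each gene was the least-squares division of its probes in genome order on the new-sorting K562 array minus the U2OS mean, with at least 2 probes on each side. In BCR it fell after the ninth of 12 probes, in a gap of 7580 bp between 23627391 and 23634972. In ABL1 it fell after the second of 14 probes, in a gap of 15624 bp between 133599067 and 133614692. The old-sorting array, which did not set the splits, placed both at the same probes when searched in the same way. The same U2OS mean was subtracted in both searches, so they were not independent. No division within NUP214 or LAMC3 reached 1 log2 unit on the new-sorting array (-0.72 and -0.22), so neither was divided, although the best division of NUP214 on the old-sorting array, at another probe, was -1.08. FIBCD1 had too few probes to be divided.

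Across the BCR split the signal of K562 dropped toward the end of the gene. The mean of the 9 probes before the split was 2.84 above the mean of the 3 probes after it on the new-sorting array and 3.18 above it on the old-sorting array. In U2OS the same step was 0.10 ± 0.17 (SD, n = 4), between -0.13 and 0.26. The old-sorting value, the only K562 value on the larger design that did not set the split, lay outside the U2OS range. An exact permutation test of 1 array against 4 cannot give less than p = 0.4 (two-sided), which is the value it gave here.

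Across the ABL1 split the order was the other way, with little signal at the start of the gene and much at its end. The 12 probes after the split were 3.61 above the 2 before it on the new-sorting array and 3.94 above on the old-sorting array, against 0.66 ± 0.09 (SD, n = 4) in U2OS (exact permutation test of the old-sorting array against U2OS, two-sided p = 0.4, the smallest possible). On the array labelled 44k the only probe at the ABL1 start was below the negative controls in red, so no size is given for its step. Both genes therefore stepped in opposite directions along their reference positions in K562, and in U2OS neither step exceeded 0.73.

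**Figure D1:**
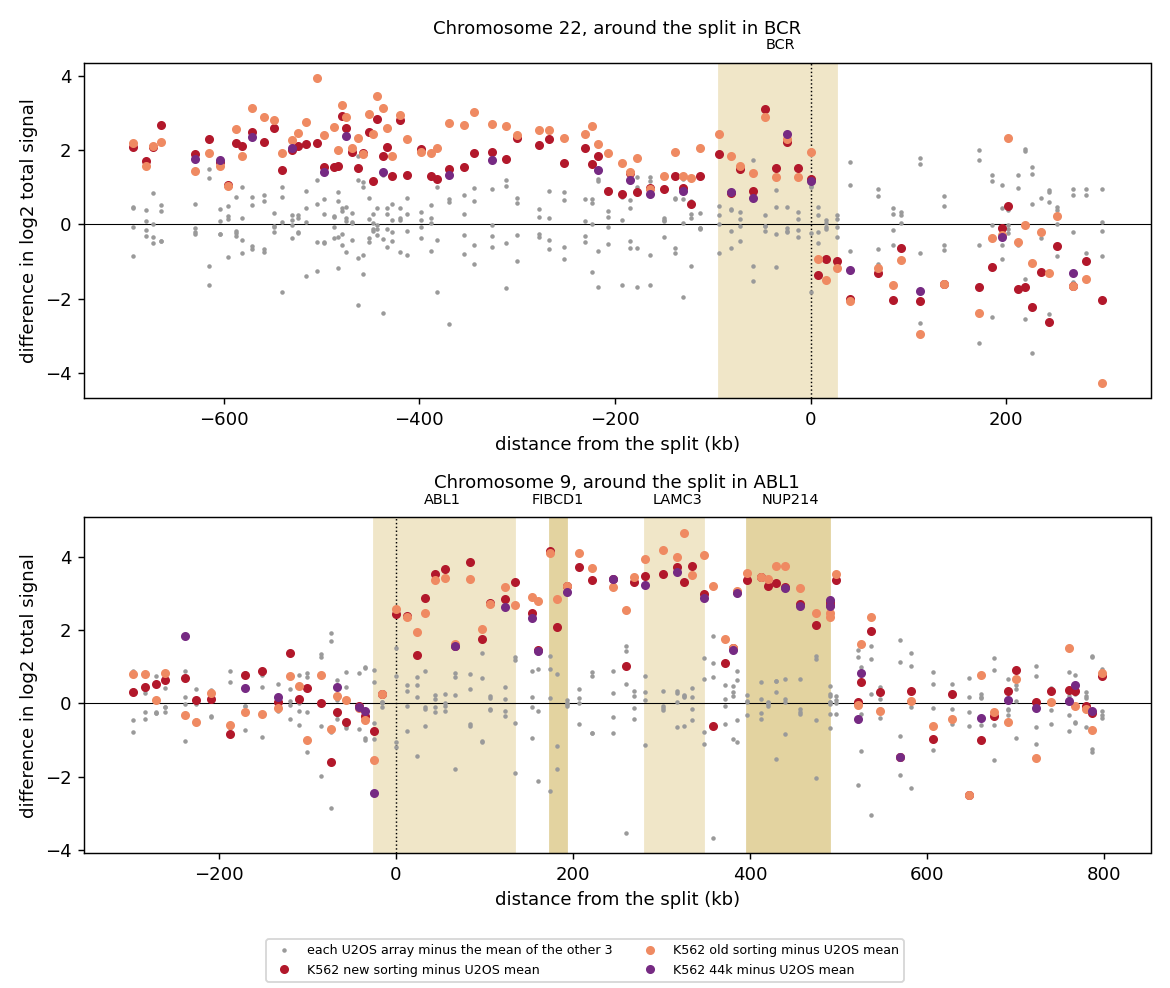
Difference in log2 total signal of each probe around the split in BCR (top) and in ABL1 (bottom), against distance from the split in kb, for the 3 K562 arrays minus the U2OS mean and, in grey, each U2OS array minus the mean of the other 3. Shaded bands mark the 5 genes. The K562 points are high up to the BCR split and below 0 just after it, and mostly high from the ABL1 split to just behind NUP214.

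Both fractions of S phase carried the step. In raw fluorescence on the new-sorting array, the 12 probes of the ABL1 end had a median of 2185 green and 1313 red units above the negative controls, against 259 green and 64.1 red units at the 2 probes of its start. On the old-sorting array, whose green channel was dim throughout, the ABL1 end gave 194 green and 892 red units and the start 32.2 and 60.1. In BCR the late channel stepped further than the early one on both arrays. The new-sorting array had a green step of 3.22 in ABL1, and the old-sorting array 2.87 (U2OS 0.78 ± 0.25, SD, n = 4), and the red step was 4.66 and 4.44 (U2OS 0.49 ± 0.31). On the new-sorting array 1 of the 2 probes at the ABL1 start read 12.9 red units and was set to the floor of 0.1 of the array median, so the size of that red step is not a measured one. In BCR the green step was 2.61 and 2.39 (U2OS 0.02 ± 0.28), and the red step 3.36 and 3.50 (U2OS 0.23 ± 0.28).

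**Figure D2:**
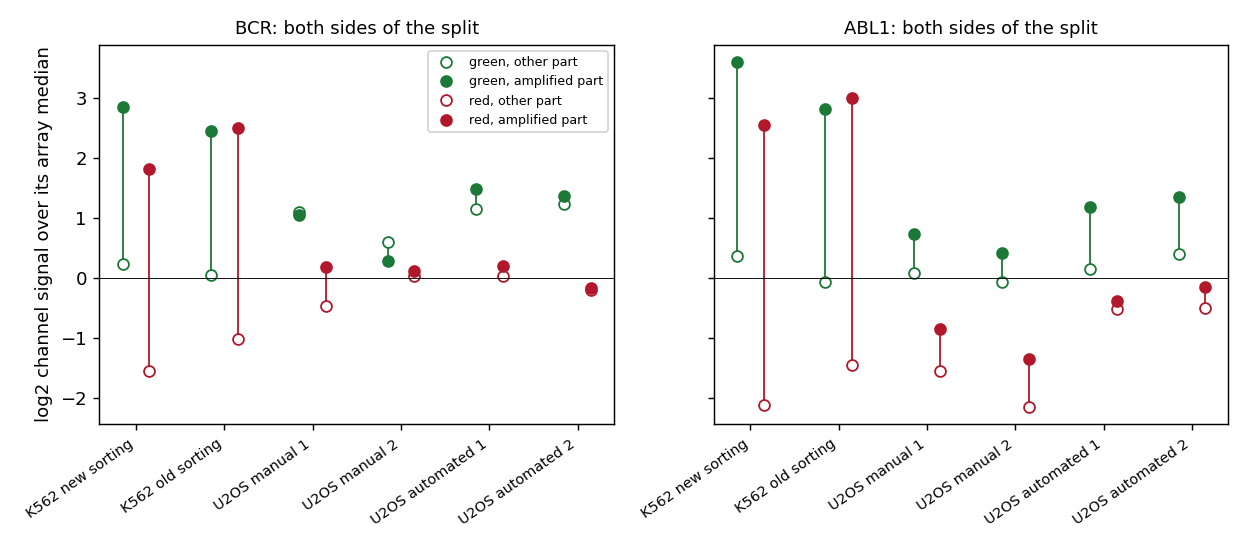
Mean log2 signal of the green (early) and red (late) channel over its array median, for the amplified part (filled) and the other part (open) of BCR (left) and ABL1 (right), on the 6 arrays of the larger design. Vertical lines join both parts of a gene on an array: they are long in both colours on the K562 arrays and short on the U2OS arrays.

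All 5 genes were higher in K562 than in U2OS in total signal, by limma over 24641 genes, where a call needed a minimum difference of 1 and an adjusted p below 0.05. Of all genes, 3.08% were called higher on this rule and 4.84% lower. The total of 1952 calls fell to between 246 and 1223 when any single array other than the second manual U2OS array was left out. K562 and U2OS arrays did not overlap for any of the 5, which was so for 29.5% of all genes. LAMC3 and NUP214 had the ranks 9 and 16 among all genes by this difference.

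FIBCD1, a chitin-binding membrane protein gene, had a log2 total signal of 2.01 (new sorting), 2.25 (old sorting) and 3.12 (array labelled 44k) in K562, and of -1.55, -2.00, -0.63 and -0.37 in manual 1, manual 2, automated 1 and automated 2 U2OS. Every K562 array was more than 2 units above every U2OS array. The difference was 3.60 (SE 0.44, limma adjusted p = 0.0069). Its size rests in part on dim spots, since 2 of the 3 probes were close to the negative controls on the manual U2OS arrays and 1 of them was set to the floor on manual 2. With probes well above background it was 2.78 (SE 0.32, limma adjusted p = 0.015). LAMC3, which encodes a laminin gamma chain of basement membranes, gave 2.67, 3.26 and 1.70 in K562 against -0.82, -1.13, -0.59 and -0.63 in U2OS, in the same order of arrays. The difference was 3.34 (SE 0.37, limma adjusted p = 0.0058), a fold of 10.1. NUP214, a nucleoporin of the nuclear pore, gave the tightest K562 values of the chromosome 9 genes, 2.56, 2.73 and 2.93, against -0.40, -0.89, -0.16 and -0.23. Its difference was 3.16 (SE 0.26, limma adjusted p = 0.0036), a fold of 8.93. The array labelled 44k carries 1 of the 3 FIBCD1, 3 of the 6 LAMC3 and 4 of the 9 NUP214 probes. Its gene means are therefore not over the same probes as on the other arrays. Without it the differences were 3.27 in FIBCD1, 3.76 in LAMC3 and 3.06 in NUP214. On every K562 array these 3 genes were above every U2OS array, and their differences were not tested against each other.

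ABL1 and BCR had smaller whole-gene differences, and on the larger design their means mix probes from both sides of the split. On the array labelled 44k the 4 BCR probes all lie before the split. Its ABL1 value averages 3 end probes and 1 start probe at -3.01. ABL1 gave 2.43, 2.33 and 1.33 in K562 and 0.02, -0.31, 0.39 and 0.51 in U2OS, with a difference of 1.88 (SE 0.34, limma adjusted p = 0.019). BCR gave 1.48, 1.63 and 1.52 in K562 and 0.54, 0.17, 0.81 and 0.56 in U2OS, with a difference of 1.02 (SE 0.24, limma adjusted p = 0.036). Both calls were close to the threshold. BCR did not meet the rule when any of the 7 arrays was left out, with differences between 0.91 and 1.12, and ABL1 missed it without the new-sorting, the old-sorting or the first automated array, at limma adjusted p = 0.060, 0.061 and 0.055.

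**Figure D3:**
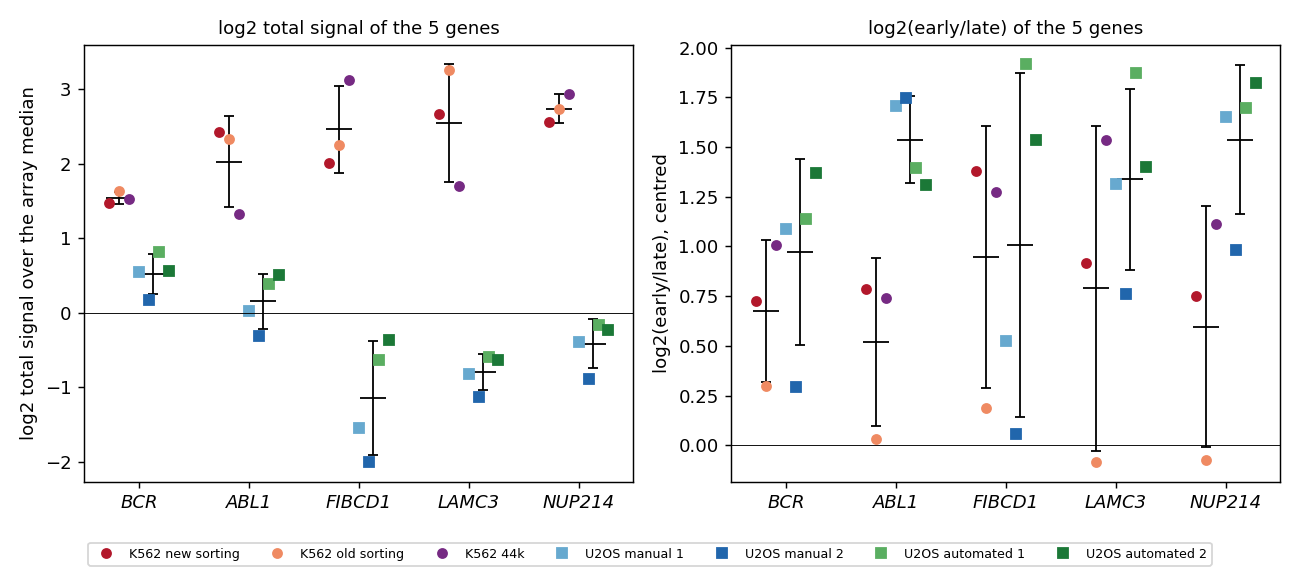
Log2 total signal over the array median (left) and centred log2(early/late) (right) of the 5 genes, with 1 point per array, circles for K562 and squares for U2OS, and bars for the mean and SD of each cell line. The K562 and U2OS points are apart for all 5 genes in total signal, and apart only for ABL1 in timing.

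Single probes gave the same division. Total signal was called higher in K562, by limma over 169539 probes, at 8 of 12 probes of the ABL1 end, 2 of 3 in FIBCD1, 6 of 6 in LAMC3, 8 of 9 in NUP214 and 3 of 9 before the BCR split, where 1.41% of all probes were. None of the 2 probes at the ABL1 start or the 3 at the BCR end was called higher. Since the splits were set on 1 of these arrays, the counts by side are a description. The differences ran from 1.58 to 3.62 at the ABL1 end, from 2.47 to 4.13 in FIBCD1, from 3.30 to 3.99 in LAMC3, from 2.30 to 3.52 in NUP214 and from 1.004 to 3.01 before the BCR split. At the 3 probes of the BCR end they were between -1.21 and -1.08, and none was called lower. The 2 probes of the ABL1 start differed from each other, at -1.58 and 0.27. The median GC content of the probes was 36.7% in both parts of BCR and of ABL1.

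Measured against U2OS, the extra signal of the BCR part was smaller than that of the chromosome 9 part. Over the 30 probes of the ABL1 end, FIBCD1, LAMC3 and NUP214, K562 exceeded the U2OS mean by 2.98 with new and by 3.15 with old sorting, folds of 7.88 and 8.89. Over the 9 probes before the BCR split it did so by 1.64 and 1.88, folds of 3.12 and 3.69. On the array labelled 44k, with 10 and 4 of these probes, the excess was 2.82 and 1.30. Measured from the other part of the same gene, BCR and ABL1 were closer to each other. The step less the U2OS step was 2.74 (new sorting) and 3.08 (old sorting) in BCR, and 2.95 and 3.28 in ABL1. The BCR end itself differed from U2OS by -1.21 to -1.08, not called, and the ABL1 start rests on 2 probes. Chromosome 9 minus BCR, taken within each array, was 0.49 and 0.43 in K562 and -0.84 ± 0.17 (SD, n = 4) in U2OS, from -0.97 to -0.58. The K562 and U2OS arrays did not overlap, but 2 arrays against 4 cannot give an exact two-sided permutation p below 0.133, the value found.

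The excess reached past the last NUP214 probe. The first probe past its last one still had it, at 3.45 (SE 0.35, limma adjusted p = 0.0052). The 3 probes of FAM78A that follow ranged from -0.14 to 2.17, none of them called, and the next probe gave 0.06. The probe that still had the excess and the one behind FAM78A are printed because they stand on both sides of its end.

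Probe A_16_P18786602, chr9:134112199-134112258, high in K562: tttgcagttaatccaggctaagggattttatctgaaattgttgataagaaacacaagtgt
Probe A_16_P38890316, chr9:134161944-134162003, level with U2OS: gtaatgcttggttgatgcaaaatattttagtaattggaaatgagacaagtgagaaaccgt

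Genes around the 5 were followed on lists by position. Of 6 measured genes on chromosome 9 before ABL1 or between the members, none was called in either direction (median difference 0.20, all genes -0.08). AIF1L, which lies between LAMC3 and NUP214, was 1.19 higher in K562 (SE 0.47, limma adjusted p = 0.14) and was not called. PRDM12 and EXOSC2, the measured genes of the list next before ABL1, gave 0.03 and -0.21. Of 12 genes behind NUP214, among them RAPGEF1 and the tumour suppressor gene TSC1 at 0.05 and 0.33, none was called either (median 0.27). FAM78A, the nearest of them, was 1.09 higher in K562 (SE 0.56, limma adjusted p = 0.24) with overlapping arrays, so where the excess ended within or before that gene was not resolved.

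Chromosome 22 was different in that the excess reached far ahead of BCR. Of 11 measured genes before BCR, 5 were called higher in K562 and none lower (median 1.02). Among them were XKR3, whose fusion with NUP214 has been described in K562, at 1.98 (SE 0.25, limma adjusted p = 0.0075), RTDR1 at 1.50, PRAME, a tumour antigen gene, at 1.06, and PPM1F, a phosphatase gene, at 1.02. CRKL, an adaptor gene whose product is a substrate of the fusion kinase, was at 1.13 (limma adjusted p = 0.082). CECR1, USP18, HIRA, TOP3B and RAB36 lay between 0.09 and 0.90. Of 8 genes behind BCR none was called higher and 2 lower, the protease gene MMP11 at -1.29 (limma adjusted p = 0.030) and CABIN1 at -1.21 (limma adjusted p = 0.032), and SMARCB1, a chromatin remodelling subunit gene, was at -1.09 (limma adjusted p = 0.056).

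Windows of 100 kb on the 6 arrays of the larger design placed these genes in longer stretches. Of 24161 windows, 7.5% were called higher in K562 in total signal and 5.85% lower. On chromosome 9 an unbroken run of 6 windows, chr9:133600001-134200000, was called higher, with a mean difference of 2.66. Its largest value, 3.25 (SE 0.30, limma adjusted p = 1.0e-04), was at chr9:133800001-133900000 and the next, 3.18 (SE 0.29), at chr9:134000001-134100000. The 10 windows nearest to it that were not called, 5 on each side, had a median of 0.05. On chromosome 22 a run of 12 windows, chr22:22400001-23600000, ended at BCR with a mean of 1.73 and a highest value of 2.32 (SE 0.30). A separate run of 4 windows over XKR3, chr22:17000001-17400000, averaged 1.74 and peaked at 2.34 (SE 0.25).

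The run from ABL1 to NUP214 had early mean timing, unlike most windows with an excess genome-wide. The run ending at BCR shared this in part, with all 12 of its windows early in U2OS and 9 early in K562. Of the 1812 windows called higher genome-wide, 76.1% were later than the median probe in U2OS, where 11599 of all 24161 windows were early. The late share was 12% of the 25 windows called higher on chromosome 22 and 43.8% of the 32 on chromosome 9. Among the 20 windows with the largest excess, 13 were on chromosome 13 and 2 in the run from ABL1 to NUP214. Those 2 were the only ones with positive mean timing in both cell lines. Their K562 means combine 1.15 and 0.68 on the new-sorting array with -0.02 and -0.16 on the old-sorting array. Among the 9421 windows with positive mean timing in both cell lines, the 5 largest excesses were the first 5 windows of that run, from 2.68 to 3.25. The sixth was on chromosome 7, at 2.41.

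In timing none of the 5 genes was called, where limma with an adjusted p under 0.05 called 13.4% of all genes, 7.22% later and 6.16% earlier in K562. All 5 differences were negative, which is the later direction in K562 (median -0.55, all genes -0.15). ABL1 gave 0.78 (new sorting), 0.03 (old sorting) and 0.74 (array labelled 44k) in K562, and 1.71, 1.74, 1.39 and 1.31 in U2OS. It was the only one of the 5 whose K562 and U2OS arrays did not overlap, as was so for 27.3% of all genes. The difference was -1.02 (SE 0.32, limma adjusted p = 0.063), which passed the threshold when only probes well above background were used (-1.04, adjusted p = 0.028) or only genes with at least 3 probes (adjusted p = 0.021). It was -0.77 without the old-sorting array (adjusted p = 0.19), -0.51 with normexp background correction and an offset of 50 (adjusted p = 0.48) and -0.47 with a loess correction (adjusted p = 0.32), so its size depended on the ratio used. NUP214 gave 0.75, -0.07 and 1.11 in K562 and 1.65, 0.98, 1.70 and 1.82 in U2OS. The array labelled 44k overlapped U2OS there, and K562 minus U2OS was -0.94 (SE 0.37, limma adjusted p = 0.13), or -0.61 without the old-sorting array.

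The other 3 genes showed less. LAMC3 gave 0.92, -0.08 and 1.54 in K562 and 1.32, 0.76, 1.87 and 1.40 in U2OS (difference -0.55, SE 0.43). BCR gave 0.73, 0.30 and 1.007 in K562 and 1.09, 0.29, 1.14 and 1.37 in U2OS (difference -0.30, SE 0.36). FIBCD1 gave 1.38, 0.19 and 1.27 in K562 and 0.52, 0.06, 1.91 and 1.53 in U2OS (difference -0.06, SE 0.50), and its sign was not stable between settings. On manual 2 U2OS, 2 of the 3 FIBCD1 probes carry a timing of -0.16, a value repeated at some spots where the software replaced a dim signal by a surrogate. Surrogates were used at 15 of the 44 spots there and at 6 on manual 1, not all of them with a repeated value. Without the old-sorting array LAMC3 was at -0.11 and BCR at -0.11. For each of the 5 genes the old-sorting array was the lowest K562 array. The array labelled 44k carries 3 of the 6 LAMC3, 4 of the 12 BCR and 1 of the 3 FIBCD1 probes. Its BCR probes all lie before the split.

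Amplified and unamplified parts of the same gene could be compared within an array. On the new-sorting array the ABL1 end had a timing of 0.63 and its start 1.72, and on the old-sorting array -0.24 and 1.64. In U2OS the end minus the start was 0.35 ± 0.51 (SD, n = 4), from -0.11 to 0.95, against -1.09 and -1.88 on the K562 arrays. These 2 K562 arrays lay below all U2OS arrays, although the start rests on 2 probes. The first of these probes was dim, at 12.9 red units with new sorting and 18.4 green and 16.6 red units with old sorting. Its timing was 2.23 and 2.41 on these arrays, and that of the second start probe was 1.20 and 0.88. The array labelled 44k went the other way, at 1.09 and above all U2OS arrays, with 3 probes at the end and a single probe at the start that was below the negative controls in red. In BCR the part before the split minus the part after it was -0.50 and -1.35 in K562 and -0.16 ± 0.41 in U2OS, from -0.71 to 0.17. Only the old-sorting array was outside the U2OS range in BCR (exact permutation test, two-sided p = 0.4 for each gene, the smallest possible).

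**Figure D4:**
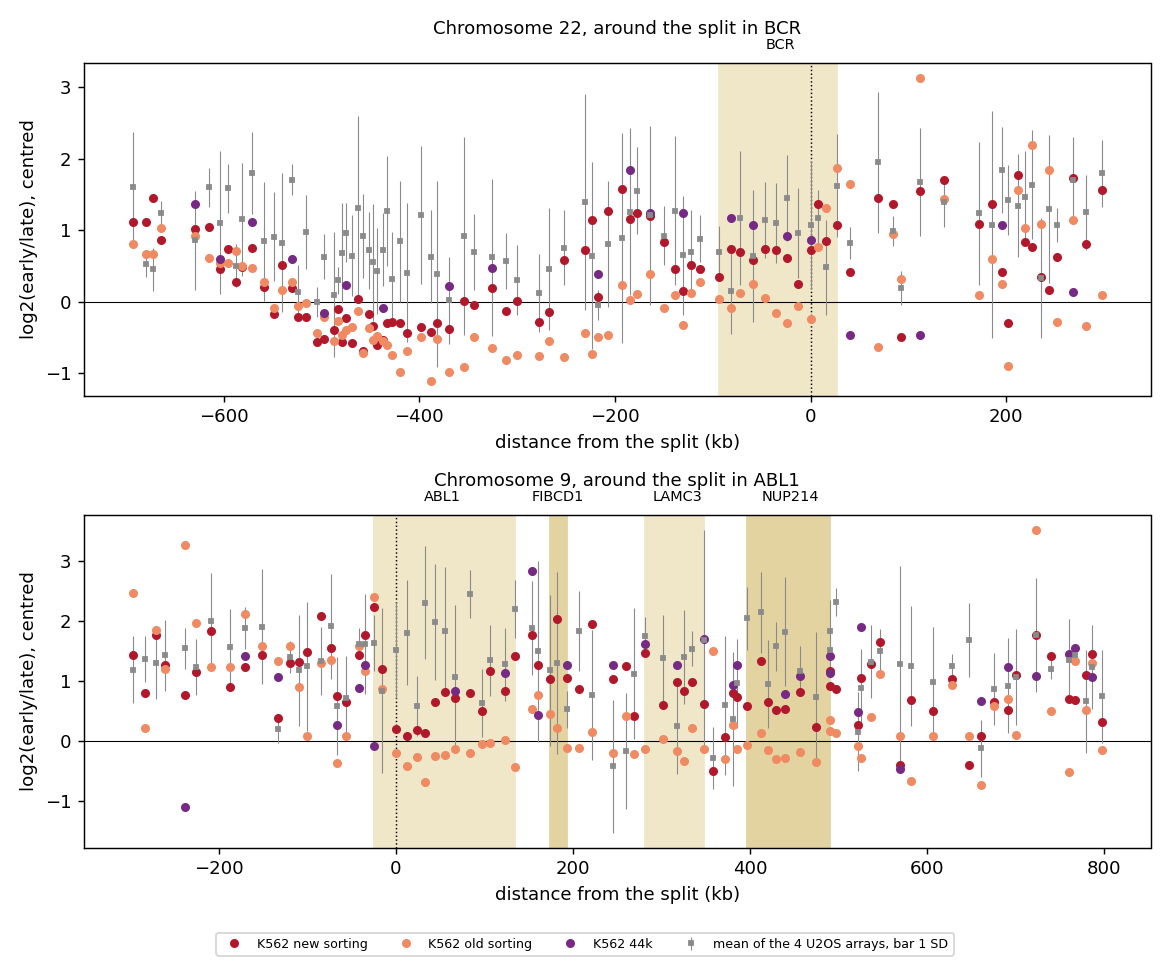
Centred log2(early/late) of each probe around the split in BCR (top) and in ABL1 (bottom), against distance from the split in kb, for the 3 K562 arrays and, in grey, the mean of the 4 U2OS arrays with bars of 1 SD. From ABL1 to NUP214 the old-sorting points lie close to 0 and mostly below it, nearly all new-sorting points lie above 0, and before the ABL1 split both spread around the U2OS means.

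Over the 39 probes of the amplified parts the timing was positive at 39 on the new-sorting array, with a median of 0.72 and a range of 0.09 to 2.04. On the old-sorting array it was positive at 12 of the same 39, with a median of -0.13 and a range of -0.69 to 0.45. On the array labelled 44k all 15 probes were positive, with a median of 1.14. The U2OS medians were 1.24, 1.003, 1.50 and 1.63, so the larger-design K562 arrays were both below all U2OS arrays (exact permutation test of 2 against 4, two-sided p = 0.133, the smallest possible). The 5 probes of the unamplified parts were all positive on both K562 arrays, with medians of 1.20 and 1.31, within the U2OS range of 0.83 to 1.72.

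The amplified probes also varied less among themselves in K562. The SD of timing over them was 0.40 on the new-sorting array, 0.23 on the old-sorting array and 0.27 on the array labelled 44k, against 0.61 to 0.99 on the U2OS arrays. Relative to each array's median these probes were brighter in K562 than in U2OS. On the old-sorting array the early channel was dim, with a median probe of 30.5 green and 114 red units. The ABL1 end gave 194 green units there, below the 445 and 320 of the automated U2OS arrays and above the 81.4 and 67.8 of the manual ones. The part of brightness and of the weak green channel in the timing of these probes was not tested. At single probes, 2 of the 44 in the 5 genes were called in timing by limma, where 9.38% of all probes were called in either direction. Both were among the 12 probes of the ABL1 end and later in K562, at 133647759 with a difference of -2.59 and at 133698773 with -2.15.

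In the 100-kb windows of the run from ABL1 to NUP214 the mean timing difference was -0.85. By the mean of each cell line all 6 windows were early in both, and all 6 were less early in K562, as were 13330 of all 24161 windows. On the old-sorting array alone, timing was below 0 at chr9:133600001-133700000 (-0.29), chr9:133800001-133900000 (-0.02) and chr9:134000001-134100000 (-0.16). Of the 6 windows, 2 passed the test, where 12.4% of all windows were called later and 9.52% earlier. These were chr9:133600001-133700000, with 0.08 in K562 and 1.70 in U2OS (limma adjusted p = 0.0081), and chr9:134000001-134100000, with 0.26 and 1.43 (limma adjusted p = 0.040). The new-sorting array had a median of 0.76 over the run, the old-sorting array 0.06, and the U2OS arrays 0.83 to 1.57. In the 10 flanking windows the medians were 1.14 and 1.33 in K562 and 1.099 to 1.38 in U2OS, none of them called. The size of the difference depended on the K562 array and on the ratio used: it was -0.44 without the old-sorting array, -1.26 without the new-sorting array, and -0.42 with an intensity-dependent (loess) correction.

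Along the chromosome 22 run the timing differed by position. The first 6 windows had differences of -0.16 to 0.21. The next 6, nearer to BCR, had differences of -1.16 to -0.47, and 1 of these, chr22:23100001-23200000, was called later, with 0.63 in U2OS and -0.39 in K562 (limma adjusted p = 0.038). The XKR3 run was at -1.27 in K562 and -0.22 in U2OS. Across all windows the total and timing differences had a Pearson r of -0.16 (n = 24161), with -0.41 on chromosome 9 (n = 961) and 0.00 on chromosome 22 (n = 328). Windows share arrays and neighbours, and total and timing come from the same spots, so these are descriptions only.

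**Figure D5:**
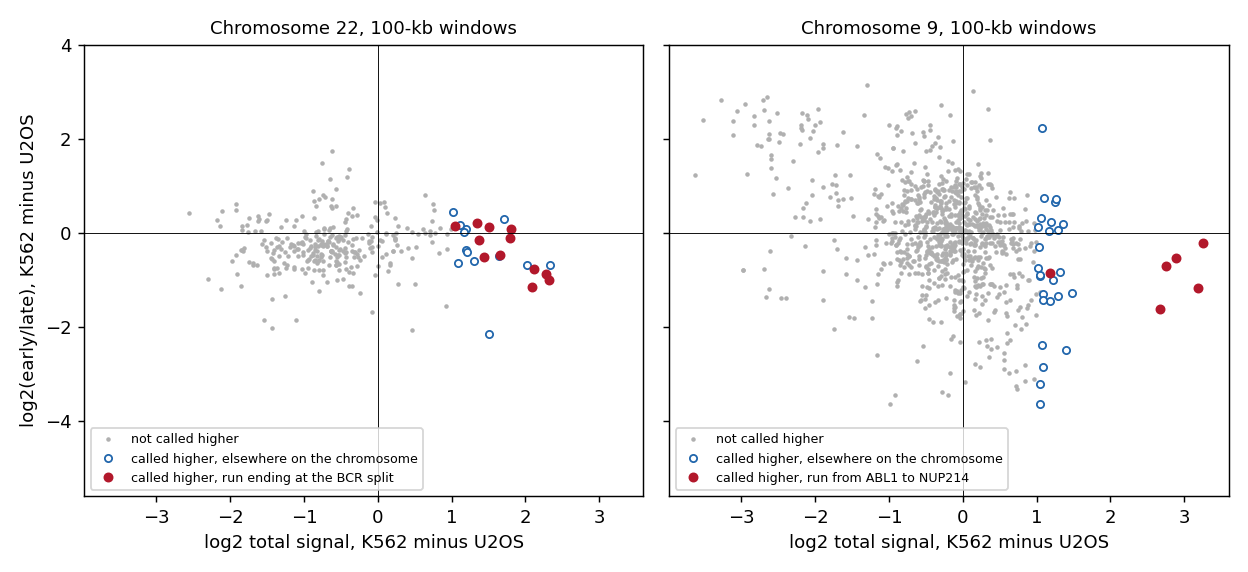
Difference in log2(early/late) against difference in log2 total signal, K562 minus U2OS, for each 100-kb window of chromosome 22 (left) and chromosome 9 (right). Filled red points are the runs ending at the BCR split and from ABL1 to NUP214, open points are other windows called higher in total signal. The red points on chromosome 9 all lie below 0 in timing, and 5 of the 6 lie to the right of all other windows of that chromosome.

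No gene of the 4 position lists passed the timing test in either direction by limma, and the medians of the lists were between -0.57 and -0.11. Between manual and automated U2OS preparations none of the 5 genes was called in timing. The largest difference was FIBCD1, 1.72 automated against 0.29 manual (limma adjusted p = 0.15), where the manual value includes the surrogate signals, and limma called 0 of all 24641 genes there, with 4752 at an unadjusted p under 0.05.

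Genes with the most similar total signal were sought among 11299 others with at least 3 probes, by the summed squared difference over the 6 larger-design arrays. LAMC3 and NUP214 were nearest to BC043442, a transcript on chromosome 13 (0.59 and 0.93), and FIBCD1 to BC172255 (1.09), whose probes lie on chromosome 9 between positions 133768611 and 133883197, inside the amplified stretch. ABL1 was nearest to BC089413 on chromosome 22 (0.998), whose probes lie between positions 22400747 and 23152475, inside the run ahead of BCR. BCR was nearest to HIPK2 on chromosome 7 (0.21).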

How the data were processed

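The 5 genes and the neighbour lists were chosen with earlier results of these data known. The deposited intensity columns (mean spot signal, local background and processed signal per channel) and the deposited log10 ratio of late over early were written by Agilent Feature Extraction 11.5.1.1, per the file headers, with version 9.1 given in the submitters' processing notes. Per the file headers the log10 ratio comes from background-subtracted, dye-normalized signals. Positions are hg19.

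Saturated, non-uniform and manually flagged spots and control spots were left out. Total signal was green plus red above the negative control median, over the array median of chromosomes 1 to 22 and X, floored at 0.1, in log2. Timing was minus the deposited ratio in log2, centred on the median; no offset was added, since an offset pulls dim spots to 0 more than bright ones. An offset of 50 was an alternative. Probes were averaged per gene (named by the larger design) and per 100-kb window with at least 3 probes. K562 and U2OS were compared with limma 3.58.1 in R 4.3.3 and Benjamini-Hochberg adjustment over all features, with a difference of at least 1 for total signal. Windows used the 6 arrays of the larger design, and probes or genes missing on the array labelled 44k were fitted without it. The fits and the split search were tested on simulated data. Named were the 5 genes, listed neighbours, probes beside a split, the highest windows, 3 most similar genes per gene, and check genes, while the window runs outside chromosomes 9 and 22 and the probes behind NUP214 were chosen after their values were seen. The listed symbols QRFP, HMCN2, GNAZ and IGLL1 were not found. The values of 1 listed gene are not reported here. Both manual U2OS arrays shared a slide and no slide held both lines, so slide and cell line cannot be told apart. The replicate numbers of U2OS did not pair the arrays (correlation of deviations 0.02 over 24641 genes).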

Additional observations from a re-analysis of the deposited data

How the results depend on the processing

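FIBCD1, LAMC3 and NUP214 stayed called in total signal under all 17 alternatives run, with differences from 2.78 to 3.85. BCR kept its direction but was not called in 10 of 17 and ABL1 in 3 of 17. Timing of BCR and LAMC3 stayed negative and uncalled under 18 alternatives, but ranged from -0.52 to -0.11 and from -0.92 to -0.11, both nearest to 0 without the old-sorting array. FIBCD1 turned to 0.022 with equal spread per array, and lay between -0.38 and 0.32 without 1 array (0.32, 0.24 and 0.11 without the old-sorting, first or second automated array). NUP214 was called at -1.16 with signals above the negative controls. The 1952 genes called in total signal became 614 with probes well above background, 1246 with at least 3 probes, and 246 (first automated array left out) to 2764 (second manual) without 1 array. The share called higher was 38.9%, 51.1% with processed signals and 52.3% with probes well above background. The 3298 genes called in timing became 2181 (second automated array left out) to 3236 without 1 array, and the share called earlier moved from 46.0% to 35.9% with an offset of 50. Between U2OS preparations the 0 calls became 8679 with that offset (FIBCD1, LAMC3 and NUP214 among them, ABL1 turned to 0.33). With a replicate block it was also 0 genes, which changed no call. On the old-sorting array, dividing each channel by its own median gave steps of 2.84 in BCR and 3.47 in ABL1. The median timing difference of the 57 windows called higher on chromosomes 9 and 22 was -0.53, between -0.70 (67 windows, new-sorting array left out) and -0.32 (17 windows, old-sorting array left out) without 1 array, and -0.28 with the loess correction, which was chosen after seeing the data, as was averaging the arrays of the shared slide (BCR 0.97, adjusted p = 0.055). The slide as a random block could not be fitted, since only 1 slide held more than 1 array. The number of arrays limits the precision.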

Other observations

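Chromosomes 13 and 7 held late stretches with a large excess in K562, beside the mean of 2.66 from ABL1 to NUP214. On chromosome 13 the windows chr13:81000001-81700000, chr13:90400001-91000000 and chr13:91800001-92500000 were called higher by means of 2.40, 2.43 and 2.83, with timing of -2.28, -2.62 and -2.68 in K562 and of -1.81, -1.91 and -1.59 in U2OS. On chromosome 7 the run chr7:153500001-154300000 had a mean of 2.78. Of all chromosome 7 windows 31.2% were called higher in K562, and on chromosome 9 3.33% were. In windows that were early in U2OS, the median timing difference was -0.58 where total signal was called higher (433 windows) and -0.15 elsewhere (11166 windows). On chromosome 9 these medians were -0.61 (18 windows) and -0.15 (486 windows). On chromosome 22 there was no such contrast, with -0.26 (22 windows) and -0.28 (264 windows).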
